A study of Drosophila melanogaster with 6 samples.

Results

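The baseline transcriptome described here is that of Malpighian tubules from control Drosophila melanogaster. The control libraries were chosen by their labels, and they are 3 of the 6 libraries of the series. The other libraries, from flies with a gut tumour, were not used and no comparison with them was made. Control flies carried esg-GAL4, UAS-GFP, tub-GAL80TS /+, that is, the driver of intestinal progenitor cells, a fluorescent reporter and a temperature-sensitive repressor of the driver, without a tumour transgene. Virgin progeny were kept for 6 to 8 days at 18 °C, where the repressor acts, and moved to 29 °C, with collection on day 8. The labels give 80 tubules lysed per genotype, and RNA with an integrity number above 7 was taken for poly-A selection. The labels do not give the sex of the flies, nor do they say whether the 3 libraries came from separate sets of flies, so the spread between them may be technical.

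Malpighian tubules are the kidney of an insect. The tubule secretes the primary urine and has 2 main cell types. Principal cells carry a proton pump, the V-ATPase, in their apical membrane. Its gradient drives potassium and sodium out of the cell through exchangers, and channels, cotransporters and the sodium pump supply these ions from the blood side. Stellate cells are fewer and pass chloride and water. Hormones such as capa peptides, diuretic hormones, leucokinin and tyramine set the rate, and the tubule also excretes urate, organic ions and foreign compounds and stores metals and pigment precursors.

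Levels are given in CPM, the share of a library's counts scaled to 1000000, and, wherever genes are compared with one another, in CPM per kb, which is CPM divided by the length of the gene's annotated exons in kilobases. Rank 1 is the highest mean CPM per kb. The 3 control libraries held 45728599, 39213686 and 36088638 counts (replicates 1, 2 and 3), at which the 3 counts that a count of 0 allows equal 0.0656, 0.0765 and 0.0831 CPM. Of 17611 genes in the table, 13018 had a count in a control library, 12983 of these had an annotated length and were ranked, and 7956 reached 1 CPM in every library. The median of all ranks is 6492. Counts of list members at 1 CPM or more are to be read beside the share over all genes, 7956 of 17611. Values over 3 libraries are mean ± SD with n = 3.

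The libraries were alike for most genes, but each pair differed in a small set. Over the 7956 genes at 1 CPM or more the log2 CPM of pairs of libraries had a Pearson r of 0.981 to 0.984, a correlation across genes within one tissue. The median ratio of the highest to the lowest library was 1.34 over 9721 genes with a mean of 10 counts or more. That ratio was above 4 for 6.45% of these genes, and for 0.573% of the 5585 genes with a mean of 10 CPM or more. The biological coefficient of variation estimated by edgeR in the control libraries alone was 20.3%.

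Replicate 1 lacked olfactory transcripts that replicates 2 and 3 held. Obp19d, an odorant-binding protein gene, was at 0.940, 91.9 and 78.6 CPM in replicates 1, 2 and 3. Obp83a, another of this family, was at 0, 20.6 and 21.7 CPM. Triplets of values below are in the same order of replicates. After these values were seen, a list of 13 genes known from the antenna was set up. All 13 were below 1 CPM in replicate 1, 6 of them with no count, and 11 reached 1 CPM in both other libraries. Orco, the coreceptor of odorant receptors, was at 0.0219, 6.12 and 4.07 CPM. The list summed to 1.75, 194 and 174 CPM.

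Replicate 3 stood apart in another set of genes. Among the 10 genes of 10 CPM or more with the widest ratio between libraries, 7 were more than 4-fold above both other libraries in replicate 3. CG16826, which has no protein match in the deposited annotation, was at 52.6, 43.4 and 2219 CPM. lcs was at 15.6, 13.4 and 683 CPM, the same pattern. CG32834, matched to a trypsin in the authors' deposited table, was at 0.656, 0.281 and 52.6 CPM. Send1, a spermathecal endopeptidase gene looked up after these values were seen, was at 0.372, 0.0255 and 17.8 CPM. Replicates 1 and 2 lay below 1 CPM for both genes. Cyp4g1, the cytochrome P450 of hydrocarbon synthesis in oenocytes, was at 252, 179 and 1102 CPM. With FASN2, FASN3, Fad2 and eloF it makes up a list of 5 oenocyte lipid genes, also chosen after the values were seen, which summed to 285, 201 and 1235 CPM. The lowest member in replicate 3, eloF, was at 3.13, 2.91 and 16.1 CPM. Every member of the list was highest in replicate 3. Whether RNA of other tissues entered these libraries was not tested, and levels of genes in these sets are given per library.

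**Figure D1:**
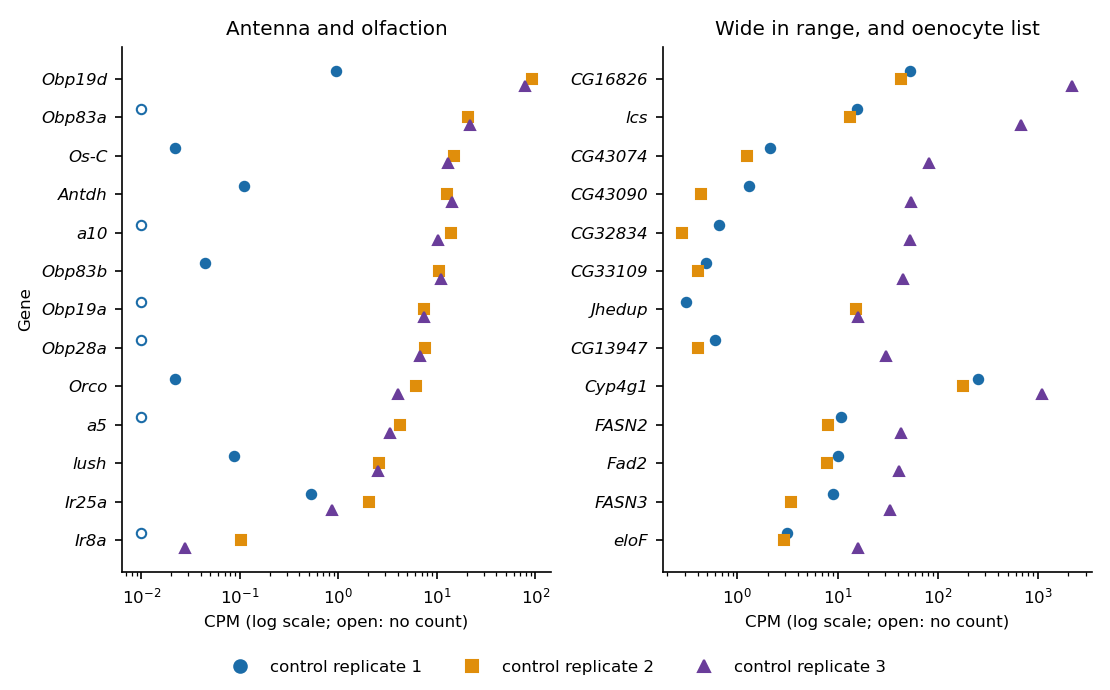
CPM (log scale) per control library of 13 genes known from the antenna (left), and of the genes with the widest ratio between libraries and 5 oenocyte lipid genes (right); open symbols at the left edge mark libraries with no count. Replicate 1 lies below 1 CPM for all 13 antennal genes, and replicate 3 lies above both others for the 5 oenocyte genes and by more than 4-fold for 7 of the 10 genes with the widest ratio.

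A few genes supplied much of the RNA. The 20 most abundant genes by CPM held 20.6, 20.8 and 21.6% of counts in replicates 1, 2 and 3, the top 100 held 38.2, 37.5 and 38.9% and the top 1000 held 77.7, 76.7 and 77.4%. Mur18B, a mucin-related gene (FBgn0030999, chromosome X, 19213254 to 19214938, plus strand; coordinates here and below are those of the Ensembl BDGP6 annotation), ranked first on both scales. It was at 50158, 56873 and 46902 CPM, or 31771 ± 3148 CPM per kb, and alone took 5.02, 5.69 and 4.69% of counts. Muc11A, a further mucin gene, was at 10017, 9846 and 8686 CPM and ranked 26 per kb.

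Next to Mur18B stood genes known only by a CG number. CG14292 (FBgn0038658, chromosome 3R, 18904933 to 18905655, minus strand) was second at 21629 ± 1478 CPM per kb, with 13669, 15098 and 13279 CPM in the 3 libraries. Every library of Mur18B lay above every library of CG14292, whereas CG14292 and mt:lrRNA, the large ribosomal RNA of mitochondria, overlapped in range. CG13309 ranked 9 at 3831, 4080.2 and 3895 CPM per kb. CG14245 ranked 11 at 3720.3, 4099 and 2139.8 CPM per kb, lowest in replicate 3. None of these 3 CG genes has a protein match in the authors' deposited table. Of the 100 highest-ranked genes, 19 had only a CG number for a name, and 12 of these had no such match. The remainder of the 100 included 51 ribosomal protein genes, 10 genes of the mitochondrial genome and 3 V-ATPase genes.

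Other top genes were transporters and tubule proteins. CG3168, which the authors' deposited table matches to a synaptic vesicle glycoprotein of the SV2 type, was at 15932, 14319 and 18054 CPM and ranked 4 by CPM and 13 per kb. MtnA, a metallothionein that binds copper and other metals, ranked 6 with 6434, 8081 and 4006 CPM per kb, and its lowest library was again replicate 3. mat, which encodes a lipid-binding protein of the tubule, ranked 14 at 2737, 3952 and 2074 CPM per kb. CG15406, matched to a trehalose transporter in the authors' deposited table, ranked 16 at 2309, 2619.6 and 2394 CPM per kb. CG4928, an UNC93-like gene by the authors' deposited table, ranked 70 at 1210.0, 1077 and 1596 CPM per kb. salt, matched there to a sodium-coupled monocarboxylate transporter and with exons that overlap CG1910, ranked 29 per kb with 4884, 2141 and 4866 CPM. Replicate 2 held less salt RNA than both other libraries.

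**Figure D2:**
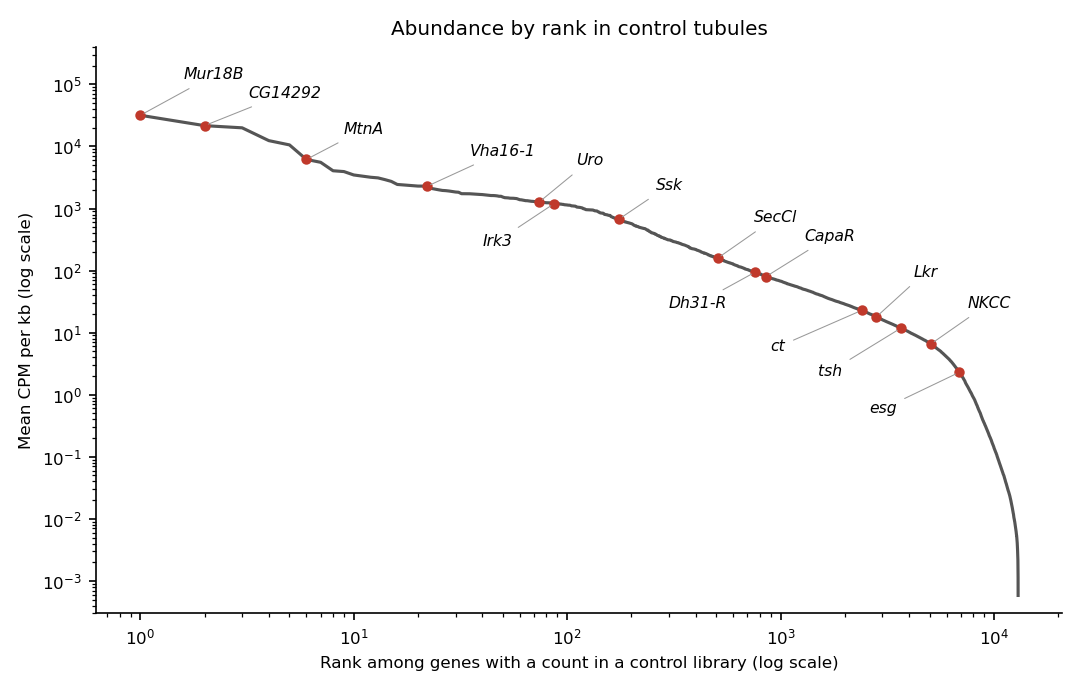
Mean CPM per kb (log scale) against rank (log scale) for the 12983 ranked genes in 3 control libraries, with transport, receptor and cell-type genes marked. Mur18B and CG14292 head the curve, V-ATPase and urate oxidase genes lie within the first 100 ranks, the marked hormone receptors between ranks 761 and 2813, and the progenitor gene esg at rank 6890.

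V-ATPase genes, which encode the pump behind fluid secretion, had the largest summed CPM of the transport lists. Its 34 matched genes summed to 29331, 27763 and 28496 CPM, a mean of 2.85% of counts. Of them, 19 reached 1 CPM in every library and 6 had no count. The median rank of 1845 covers genes that were very high and genes with few or no counts, since 15 members ranked within the top 500. It was 723.5 without members whose exons overlap another gene. For each of 13 subunits the highest gene, or the only gene where the subunit has 1, was taken as the leading gene. These 13 genes held 86.7% ± 0.645 of the list's CPM. The remainder was not only lower copies, since it included the accessory gene VhaAC45 at 2176, 2268 and 2162 CPM.

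Within the membrane sector, Vha16-1 (FBgn0262736, chromosome 2R, 6625242 to 6633090, minus strand), which encodes the c subunit of the proteolipid ring, was highest at 2324, 2079.8 and 2406 CPM per kb and ranked 22. It made up 99.98% ± 0.00872 of the summed level of the 5 c-subunit genes. VhaPPA1-1, the c'' subunit gene, was at 1125, 1113 and 1068 CPM per kb, and VhaPPA1-2 had no count. The other c genes were low, with Vha16-5 at 0.394, 0.255 and 0.277 CPM and no count for Vha16-2 and Vha16-3.

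The a subunit, part of the stator that holds the pump, had more than 1 gene above 1 CPM. Vha100-2 was at 607, 637 and 695 CPM per kb and held 90.9% ± 0.913 of the level of its 5 genes. Vha100-5 was at 31.8, 36.1 and 35.4 CPM per kb. Vha100-1 was at 25.6, 35.2 and 27.7 CPM per kb, and these lower genes overlapped in range. Vha100-4 was at 1.27, 0.765 and 0.914 CPM and Vha100-3 had no count. The small e subunit likewise had a lesser gene, with VhaM9.7-b at 386, 389 and 389 CPM per kb against 50.3, 55.0 and 61.5 for VhaM9.7-c. VhaAC39-1, the d subunit gene, was at 456, 429 and 419 CPM per kb and made up 99.8% ± 0.0889 of its pair. The accessory gene VhaAC45 was at 1081, 1127 and 1074 CPM per kb.

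In the catalytic sector, Vha13, the G subunit gene, was highest at 1529.8, 1508 and 1361 CPM per kb. Vha68-2, which encodes the catalytic A subunit, followed at 1252, 1185 and 1145 CPM per kb and made up 99.6% ± 0.0341 of the A genes. Vha55, the single B subunit gene, was at 1022, 922 and 924 CPM per kb. These 3 genes kept this order without overlap. Vha26, the E subunit gene, was at 967, 926 and 955 CPM per kb. Vha36-1 of subunit D was at 614, 570.5 and 574 and Vha14-1 of subunit F at 614, 605 and 529.6 CPM per kb, and their ranges overlapped. VhaSFD, the H subunit gene, was at 401, 345 and 347 CPM per kb. Vha44, the C subunit gene, was lowest of the 13 at 212, 173 and 181 CPM per kb with exons that overlap Hmgs. Across the 13 leading genes the level ranged 12.0-fold, against a ratio of 1.01 to 1.22 of the highest to the lowest library for each of them.

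**Figure D3:**
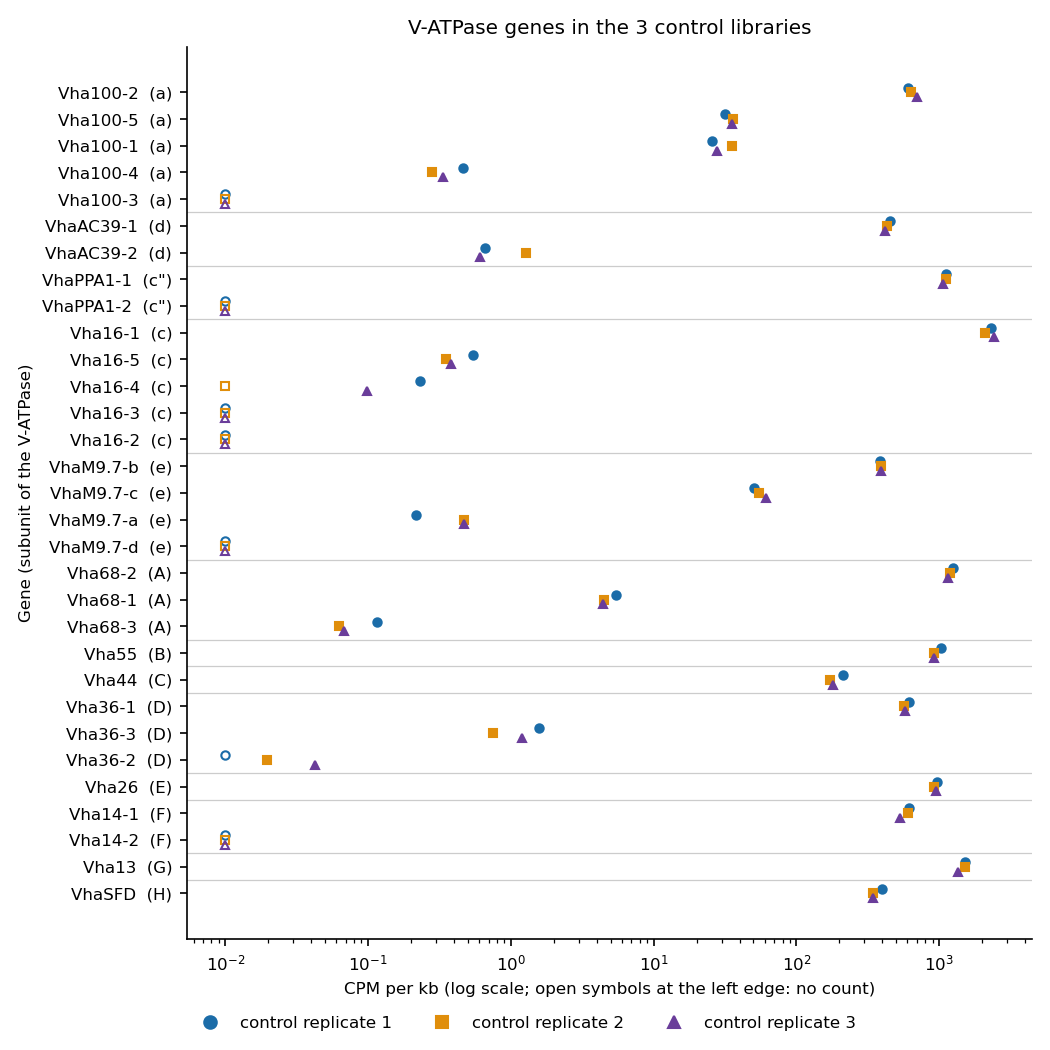
CPM per kb (log scale) of V-ATPase genes in each control library, grouped by subunit (letters in brackets); open symbols at the left edge mark libraries with no count. In each subunit with several genes 1 gene lies above all others in all 3 libraries, and the gap is least for subunits e and a.

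The basolateral sodium pump lay within the range of the leading V-ATPase genes per kb. Its alpha subunit gene Atpalpha (FBgn0002921, chromosome 3R, 20948714 to 20976239, plus strand) was at 918, 904 and 1022 CPM per kb. nrv1, a beta subunit gene, was at 1124, 1021 and 1146 CPM per kb, so the 2 ranges overlapped. nrv1 held 99.7% ± 0.0616 of the level of the 3 nrv genes. nrv2 was at 8.94, 11.4 and 11.6 CPM and nrv3 at 1.03, 2.19 and 3.08 CPM. Among exchangers, Nha2, a sodium/proton antiporter gene, was at 128, 127 and 107 CPM per kb. Ndae1, a sodium-driven anion exchanger gene, was at 136, 101 and 125 CPM per kb. The Nhe genes of sodium/proton exchangers kept an order with no overlap, Nhe1 at 43.9, 46.6 and 44.2, Nhe3 at 17.2, 23.0 and 19.9 and Nhe2 at 0.0891, 0.230 and 0.128 CPM per kb.

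Potassium channel RNA was nearly all of the inward-rectifier class. Irk3 was at 1234, 1217 and 1156 CPM per kb and ranked 87, though its exons overlap Grip71. Irk2 was at 159.8, 162 and 165 and Irk1 at 49.6, 30.7 and 39.4 CPM per kb, and the 3 genes did not overlap in range. The exons of Irk1 overlap CG46310 and cnc. Irk3 alone held 84.0% of the summed level of the 16 potassium channel genes, and the 3 highest held 98.1%. KCNQ, a voltage-gated channel gene, was the next at 15.2, 15.1 and 12.7 CPM per kb. The median rank of the list was 8550, further down than the median of all ranks.

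The gene named NKCC in the annotation (FBgn0051547) was at 25.2, 23.0 and 29.9 CPM and ranked 5064 per kb. Its name alone does not show which gene of this family carries sodium, potassium and chloride in the tubule. It is a member of the principal cell markers and was named after its value was seen. Of its relatives in the list, CG12773 and CG10413 were higher, and kcc and Ncc69, named after their values were seen, were lower. The authors' deposited table matches CG12773 to solute carrier family 12 member 8 and CG10413 to member 9. CG12773 was at 63.5, 80.1 and 57.0 CPM per kb, CG10413 at 32.1, 54.4 and 38.8 and NKCC at 6.36, 5.80 and 7.55. CG12773 was 7.55 to 13.8 times as high as NKCC in the 3 libraries. kcc was at 2.11, 2.41 and 2.43 and Ncc69 at 1.83, 1.92 and 1.38 CPM per kb. Kinase genes that regulate cation-chloride cotransporters were present. Wnk was at 16.3, 22.6 and 17.1 CPM per kb, fray at 14.8, 18.8 and 18.7 and the scaffold gene Mo25 at 33.1, 34.6 and 34.2.

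The chloride and water channel genes of stellate cells ranked 507 for SecCl, 661 for Drip, 742 for Prip and 841 for ClC-a. SecCl, a ligand-gated chloride channel gene, was at 118, 189.8 and 167 CPM per kb. ClC-a, a voltage-gated chloride channel gene, was at 93.0, 86.6 and 67.8 CPM per kb. Within the ClC family ClC-a and ClC-c overlapped in range, the second at 89.3, 71.7 and 68.5. Of the aquaporin family, Eglp2 was highest at 298, 205 and 289.8 CPM per kb, followed by Eglp4 at 186, 139.8 and 201, Drip at 114, 125 and 95.9 and Prip at 90.7, 103 and 95.8, of which Drip and Prip overlapped. Eglp2 and Eglp4 are the aquaglyceroporins of principal cells, and Drip and Prip the water channels of stellate cells. Eglp1 at 1.03, 1.30 and 1.42 and Eglp3 at 0.194, 0.283 and 0.492 CPM per kb were below all 4 of these. Of the carbonic anhydrases, CAH2 was highest at 109, 148 and 131 CPM per kb, then CAH3 at 71.4, 68.8 and 76.5. CAH5 was at 46.4, 38.7 and 18.8 CPM, lowest in replicate 3. The 3 highest of the 15 genes held 92.6% of the summed level.

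The receptor genes of the main diuretic hormones lay below the leading V-ATPase genes and Irk3 in level. Of 39 receptor genes for hormones and amines, 11 were at 10 CPM or more in every library, and the median rank of the list was 9896. Dh31-R, the receptor gene of the calcitonin-like diuretic hormone, was highest at 85.8, 93.4 and 104 CPM per kb. CapaR, the capa peptide receptor gene, was second at 76.0, 80.8 and 83.8 CPM per kb. Each library of Dh31-R lay above each of CapaR. Dh44-R2, a receptor gene of the CRF-like diuretic hormone whose exons overlap CG34234 and fdl, was at 18.7, 21.5 and 19.2 CPM per kb. Lkr, which encodes the leucokinin receptor in stellate cells, was at 19.98, 15.6 and 18.4 CPM per kb, and the ranges overlapped. TyrR, a tyramine receptor gene of stellate cells, was lower at 9.32, 9.07 and 12.7 CPM per kb. Dh44-R1 had no count, so all counts of the Dh44 receptor pair belonged to Dh44-R2.

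Genes of calcium pumps led the list of second messenger signalling. PMCA, the plasma membrane calcium pump gene, was at 409, 267 and 299.5 CPM per kb. SERCA, the pump gene of the endoplasmic reticulum, was at 79.8, 69.7 and 69.1 CPM per kb. The calcium sensor gene Stim was at 53.2, 47.6 and 48.0, the protein kinase A regulatory subunit gene Pka-R2 at 32.7, 30.1 and 33.6 and the G protein gene Galphas at 28.2, 31.6 and 31.1 CPM per kb. Of 40 genes of cyclic nucleotide and calcium signalling 30 reached 1 CPM in every library. Among growth factor and cytokine receptors, Pvr, a PDGF- and VEGF-related receptor gene, was at 284, 522 and 389 CPM. dome, the receptor of the JAK/STAT pathway, was at 126, 302 and 154 CPM, and both genes were highest in replicate 2. yki, whose active form is the transgene in the other libraries of the series, was at 68.7, 59.8 and 72.4 CPM.

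Carriers of phosphate, sugars and organic ions included several of the highest-ranked nuclear genes. NaPi-T, a phosphate transporter gene (FBgn0016684, chromosome 2R, 14842720 to 14845874, minus strand), was at 1338, 995 and 1056 CPM per kb and ranked 103. It held 47.2% of the level of its list of 14, in which 5 genes ranked in the top 500. CG5002, matched to a sulfate transporter in the authors' deposited table, was at 347, 341 and 270.1 CPM per kb. MFS14 was at 254, 382 and 303 and Picot at 231, 313 and 244 CPM per kb, 2 overlapping ranges. Oatp58Dc, an organic anion carrier gene, was at 843, 751 and 738 CPM per kb, above its neighbours Oatp58Db at 366, 345 and 427 and Oatp58Da at 301, 246 and 300.3, and the 3 genes of this cluster did not overlap in range. Oatp33Eb was at 133, 183 and 109.6 CPM per kb. Mdr49, a multidrug efflux pump gene, was at 105, 61.7 and 53.4 CPM per kb, highest in replicate 1. CG7084, matched to a carcinine transporter in the authors' deposited table, ranked 113 at 5299.7, 3128 and 3563 CPM.

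The list of sugar and vitamin transporters also held enzyme genes such as Tps1 and Sodh1. It was led by Tps1, the trehalose-6-phosphate synthase gene, at 1417, 1131 and 1028 CPM per kb. Tps1 alone held 47.8% of the list's level. CG15406, the gene matched to a trehalose transporter above, is not in this list and was higher, at 2309, 2619.6 and 2394 CPM per kb. Smvt, a multivitamin transporter gene, was at 695, 513 and 1147 CPM per kb, highest in replicate 3. Tret1-1, a trehalose transporter gene, was at 227, 269.9 and 310.0, Sodh1, a sorbitol dehydrogenase gene, at 114, 78.0 and 87.8, and nebu at 51.0, 50.4 and 64.3 CPM per kb. The 3 highest genes held 90.02% of the level of the 14 in this list.

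The urate oxidase gene headed the list of purine metabolism. Uro (FBgn0003961, chromosome 2L, 7780085 to 7781415, plus strand), the urate oxidase gene, was at 1637, 1773 and 1402 CPM, or 1271 ± 149 CPM per kb, and ranked 74. ry, the xanthine dehydrogenase gene that makes urate, was at 72.6, 50.9 and 78.4 CPM per kb, so Uro was 14.2 to 27.6 times as high. Between them lay Adss, the adenylosuccinate synthetase gene, at 357, 328 and 336 CPM per kb. NT5E-2, a nucleotidase gene, was at 273, 292 and 243 and Adk3 at 129, 131 and 85.4 CPM per kb. Prat and Prat2, which encode the first enzyme of purine synthesis, were at 7.93, 12.2 and 9.20 and 10.9, 7.95 and 7.86 CPM per kb with overlapping ranges, and the exons of Prat overlap Taf7. Uro held 53.6% of the summed level of the 30 genes, whose median rank was 4142.

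Of 16 genes of the eye pigment and tryptophan pathways 12 reached 1 CPM in every library, and the median rank was 4772. The ABC transporter gene st was at 491, 449 and 410.0 CPM per kb, and w, the white gene, at 52.1, 55.9 and 109. bw, the brown gene, was at 33.2, 28.6 and 28.1 CPM per kb. kar was at 122, 95.6 and 101 and Rab32, a gene of lysosome-related organelles, at 53.7, 53.3 and 50.5 CPM per kb. w was about as high in replicates 1 and 2 and higher in replicate 3. Enzyme genes of the ommochrome pathway included v and cn. v, tryptophan oxygenase, was at 4.42, 2.32 and 6.29 CPM. cn, kynurenine hydroxylase, was at 0.0219, 0.0255 and 0.166 CPM, and both genes were looked up after the values of the list were seen. st held 58.9% of the level of the 16 genes.

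Of 36 metal handling genes 6 ranked in the top 500, and the median rank was 2566. MtnA held 99.7% ± 0.217 of the level of the 6 metallothionein genes. Fer2LCH and Fer1HCH, the ferritin chains, were at 776, 838 and 707 and 583, 655 and 533 CPM per kb, and their exons overlap each other. ZnT35C, the zinc transporter gene of tubule storage granules, was at 833, 533 and 416 CPM per kb and Zip48C at 339, 363 and 359.8. ZnT35C was highest in replicate 1, whereas Zip48C varied by 1.07 times between the highest and lowest library.

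Of 84 cytochrome P450 genes 59 reached 1 CPM in every library and 7 ranked in the top 500, while the median rank was 5911. Cyp6g1, known for insecticide resistance, was highest at 1079, 1215 and 594 CPM per kb, lowest in replicate 3, with exons that overlap Cyp6g2. Cyp12a4 was at 493, 441 and 378 and Cyp6a18 at 343, 268 and 321 CPM per kb. The 3 highest P450 genes held 41.4% of the family's level. The 3 leading members held more in other families. In the glutathione S-transferases GstD1 at 866, 1239.9 and 731, GstE12 at 597, 540.5 and 550.4 and GstE10 at 371, 357 and 345 CPM per kb held 71.5%. In the UDP-glycosyltransferases Ugt35B1 alone, at 962, 970.4 and 1599 CPM per kb, held 58.6%. Antioxidant genes ranked higher as a list, with a median of 1156. Cat, the catalase gene, was at 1180.3, 897 and 781 CPM per kb and Sod1, the cytosolic superoxide dismutase gene, at 682, 716 and 675.

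Genes of the mitochondrial genome, glycolysis and the TCA cycle were among the most abundant. Genes of the mitochondrial genome held 6.39, 6.69 and 8.04% of counts in replicates 1, 2 and 3. mt:lrRNA was at 17616, 18666 and 23559 CPM per kb. mt:srRNA, the small ribosomal RNA, which was named after its value was seen, was at 9.24, 8.21 and 14.7 CPM per kb. The protein genes ranged from 5.46 to 12406 CPM per kb. mt:CoIII at 11537, 12107 and 13574, mt:CoI at 9721, 10106 and 11933 and mt:Cyt-b at 5237, 5317 and 6095 CPM per kb led, and mt:ND6, the lowest and singled out after its value was seen, was at 3.42, 2.72 and 10.2. Of 22 mitochondrial tRNA genes 21 had no count in these poly-A selected libraries, which puts the median rank of the mitochondrial list after the last ranked gene.

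Of the 93 nuclear genes of oxidative phosphorylation, 68 reached 1 CPM in every library, and the median rank was 504, or 1145 where CPM was not divided by length. The list sorts into copies whose names end in L, most of which are known from the testis, and all other genes. Only 1 of 21 L copies, COX4L, reached 1 CPM in every library, against 67 of 72 others. The 5 others that fell short, Cyt-c-d, ND-B8, ND-MNLL, ND-MWFE and UQCR-14, were singled out after their values were seen. All 5 have exons that overlap another gene, as do 40.1% of all genes at 1 CPM or more in every library. Their counts are therefore uncertain, and whether overlap lowered them was not tested. Genes were also grouped by complex after the values were seen. Over all members, with L copies and genes with no count, the median level was 425, 405 and 367 CPM per kb for complex V and 399, 407 and 354 for complex IV. It was 205, 199.7 and 179 for complex II, 129, 130.0 and 125 for complex I and 93.9, 107 and 89.8 for complex III. This order depends on the members counted, since only 7 of 11 complex III genes reached 1 CPM in every library. Over members that did, the median of the mean levels was 516 CPM per kb for complex IV and 477 for complex V. It was 353 for complex III, 195 for complex II and 159 for complex I. ATPsynC, the c-ring gene of ATP synthase, was the highest member at 1256, 1145 and 1125 CPM per kb, though it shares exon sequence with other annotated genes. blw, the alpha subunit gene, was at 1218, 1111 and 1067 CPM per kb. levy, a subunit gene of cytochrome c oxidase, was at 929.6, 995 and 883 CPM per kb, with exons that overlap pita. Cyt-c-p was at 516, 541 and 677 and held 99.9% ± 0.0955 of the cytochrome c pair.

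The TCA cycle list had a median rank of 462, with 25 of 28 genes at 1 CPM or more. Mdh2, mitochondrial malate dehydrogenase, was highest at 1037, 1040.2 and 1005 CPM per kb, then mAcon1, aconitase, with exons that overlap CG43345 and CG43346, at 606, 604 and 664. Mdh1 was at 658, 576 and 564 and kdn, citrate synthase, at 488, 439 and 519. mAcon2 had no count. Glycolysis ranked as high, with a median of 386 over 21 genes. Hex-C, a hexokinase gene, was at 669, 504 and 499 CPM per kb, above Hex-A at 65.7, 43.8 and 45.2. Gapdh1 at 596, 535 and 451 and Gapdh2 at 547, 503 and 451 CPM per kb overlapped, so neither gene of this pair led. PyK, pyruvate kinase, was at 312, 308 and 262. All 5 of these genes were highest in replicate 1.

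Fatty acid oxidation had a median rank of 1226, with Etfb, an electron transfer flavoprotein gene, at 493, 506 and 495 CPM per kb and Echs1, an enoyl-CoA hydratase gene, at 323, 303 and 273. Lipid synthesis and storage ranked lower, with a median of 2441. Desat1, a fatty acid desaturase gene, was at 402, 450.4 and 387 CPM per kb, and the perilipin gene Lsd-2 at 119, 149 and 195, above Lsd-1 at 16.4, 25.2 and 31.3. Both perilipin genes were highest in replicate 3.

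Ribosomal protein genes had the largest summed CPM of all lists. Of 93 cytosolic ribosomal protein genes 85 reached 1 CPM in every library and 82 ranked in the top 500, with a median rank of 92 and a sum of 95501, 99861 and 103932 CPM. By CPM alone, with no length, the median rank was 153. RpL27A was highest at 2713, 2718 and 2771 CPM per kb. The median ratio of highest to lowest library among the genes at 1 CPM or more was 1.09, against 1.34 over all genes with a mean of 10 counts or more. eEF1alpha1, elongation factor 1, was at 3612, 3182 and 3620.1 CPM per kb. eEF1alpha2, its second gene, was at 1.68, 3.26 and 4.6 CPM. The proteasome list was compact. Of its 32 genes 31 reached 1 CPM, none ranked in the top 500, and the median rank was 1102. The only proteasome gene below 1 CPM, Prosalpha1, was singled out after its value was seen and has exons that overlap phr. Mitochondrial ribosomal proteins followed with a median of 2297 and 72 of 73 genes at 1 CPM or more.

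Smooth septate junctions seal endodermal and renal epithelia of insects, and all 4 of their genes were high, with a median rank of 307. Ssk was at 596, 794 and 635 CPM per kb, hoka at 305, 368 and 261, Tsp2A at 256, 365 and 270.4 and mesh at 82.6, 146 and 86.0, all 4 highest in replicate 2. The list for polarity and for pleated septate junctions, the form of ectodermal epithelia, had a median rank of 4872 over 26 genes, all of which reached 1 CPM. Its highest member, arm, the beta-catenin gene, with exons that overlap mRpL16, was at 86.8, 95.9 and 88.6 CPM per kb. Ssk was 6.86 to 8.28 times as high as arm, whereas mesh and arm overlapped in range. The list mixes junction and polarity genes, so this ratio does not compare the smooth and pleated forms of septate junction. Another member, Gli, was at 23.8, 43.9 and 27.5 CPM per kb, and every library of mesh lay above every library of Gli. Of the brush border list, Act5C, cytoplasmic actin, was at 909.9, 889 and 577 CPM per kb and held 97.4% ± 1.34 of the pair with Act42A, and Moe, which links actin to the membrane, was at 163, 164 and 149.

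Transcription factor genes of the tubule spanned a wide range of levels. cad, the caudal homeobox gene, at 150.02, 109 and 147 and fkh, the fork head gene, at 108, 119 and 109 CPM per kb were highest, and their ranges overlapped. GATAe, a GATA factor gene of endoderm and tubule, was at 37.3, 50.7 and 39.2, Doc1 at 28.9, 39.4 and 28.2 and exd at 35.7, 27.8 and 30.3 CPM per kb. ct, the cut gene of principal cells, was at 26.3, 15.5 and 26.7 CPM per kb, lowest in replicate 2, and tsh, the teashirt gene of stellate cells, at 12.3, 10.3 and 12.8. Hnf4 was at 16.2, 15.3 and 20.2. Kr, Krüppel, needed in the embryo to form tubules, was at 0.0219, 0.153 and 0.277 CPM and was looked up after its value was seen. Of the 31 genes 22 reached 1 CPM in every library.

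**Figure D4:**
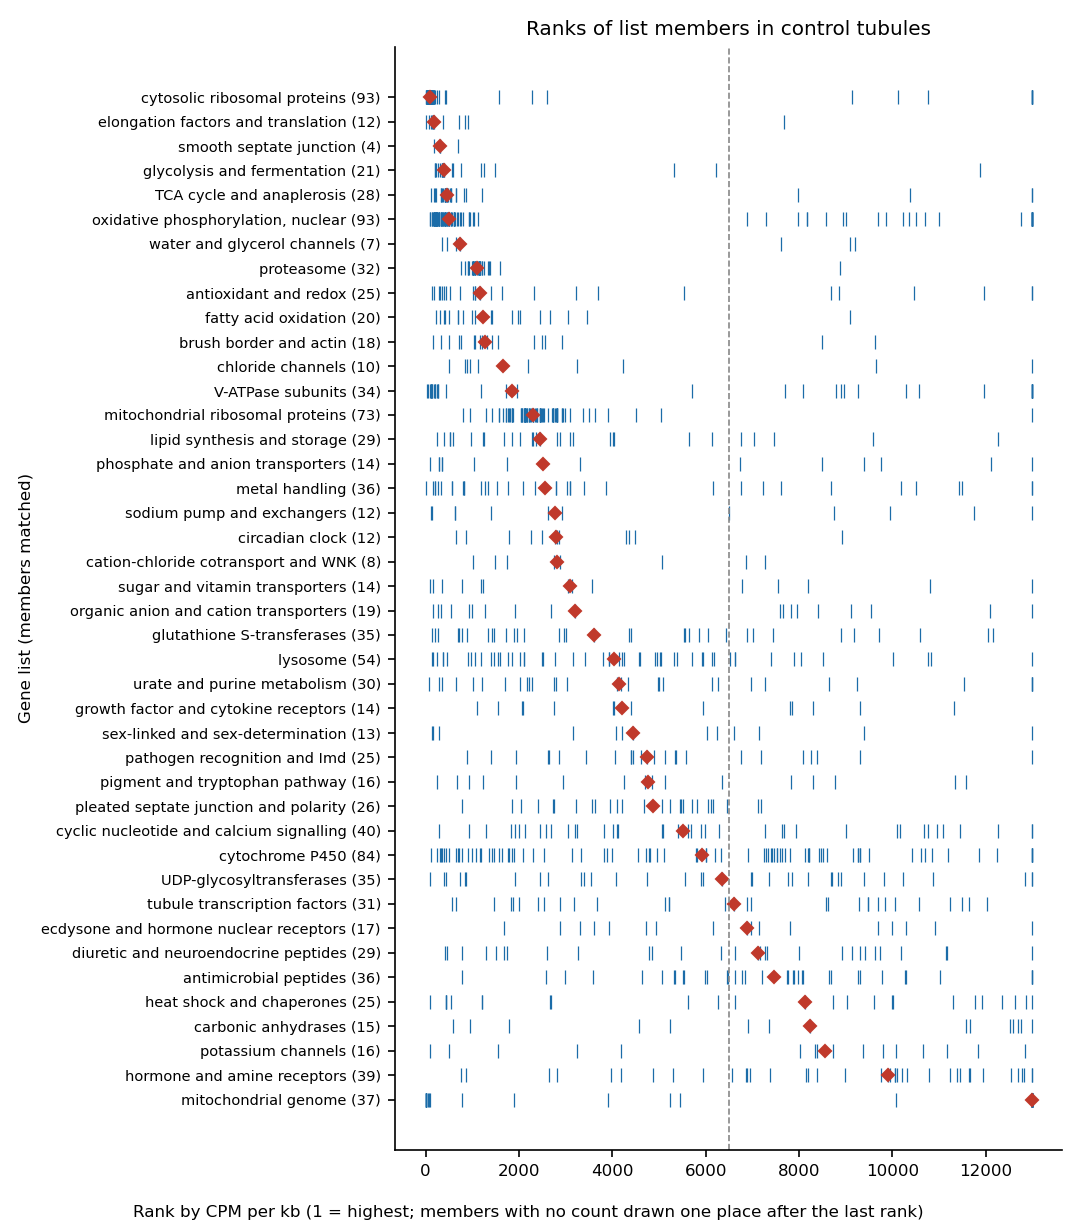
Rank by mean CPM per kb (1 is highest) of every matched member of 42 gene lists in control tubules (ticks), with each list's median (diamond) and the median of all ranks (dashed line); members with no count stand one place after the last rank. Ribosomal proteins, elongation factors, smooth septate junction, glycolysis and TCA genes cluster at the left, the V-ATPase list spans the first 500 ranks and genes with no count, and hormone receptors spread to the right.

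Markers of both main tubule cell types were present. All 13 principal cell markers and all 8 stellate cell markers reached 1 CPM in every library. The principal cell list summed to 15273, 14380.3 and 14271 CPM and the stellate cell list to 1415, 1563 and 1356 CPM, with a highest-to-lowest ratio of 1.07 and 1.15. The sums differ in the kind of gene they hold, since V-ATPase and Irk genes are in the principal cell list, and say nothing of cell numbers. In bulk RNA the number of cells and the RNA per cell cannot be told apart. The lowest stellate cell marker, tio, a relative of tsh named after its value was seen, was at 3.13, 2.65 and 3.21 CPM.

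Progenitor markers were low. esg, which marks renal stem cells and drives the GAL4 line of these flies, was at 5.27, 5.20 and 5.21 CPM, or 2.32, 2.29 and 2.29 CPM per kb, and ct was 6.76 to 11.6 times as high per kb. Sox100B was at 2.08, 2.19 and 2.63 CPM and Sox21a at 1.75, 3.09 and 2.13 CPM, the second of which was highest in replicate 2. Of 8 matched markers 4 reached 1 CPM in every library, against 7956 of all 17611 genes. The list summed to 13.6, 13.7 and 15.2 CPM.

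RNA known from other tissues was measured alongside. Midgut enterocyte genes summed to 1248, 538 and 864 CPM over 41 genes, of which 31 reached 1 CPM. alphaTry, a trypsin gene, was highest per kb, with 266, 88.1 and 143 CPM. LysD, a lysozyme gene with close copies and exons that overlap LysC, was next per kb, with 141, 44.4 and 67.0 CPM. Both were highest in replicate 1 and lowest in replicate 2. The fat body list summed to 3763, 2538 and 5509.6 CPM, most of it from the 3 yolk protein genes. Yp3 was at 1518, 1071 and 2222 CPM, Yp2 at 1209.8, 662 and 1692 and Yp1 at 503, 366 and 754 CPM, all highest in replicate 3 and lowest in replicate 2. Yolk proteins are made by female fat body and ovarian follicle cells. Of the 13 fat body genes 8 reached 1 CPM in every library. Over all 13 the median level was 3.37, 9.67 and 7.34 CPM per kb, highest in replicate 2 and lowest in replicate 1. The order of the summed CPM is thus that of the yolk protein genes and not of the list as a whole.

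Muscle genes differed little between libraries, at 695, 680.3 and 748 CPM, with Act57B at 96.8, 101 and 92.5 and Mlc2 at 81.5, 86.8 and 85.0 CPM. Eggshell and germline genes summed to 328, 159.8 and 172 CPM, led by the vitelline membrane gene Vm26Aa at 67.9, 23.1 and 65.4 CPM. Trachea markers summed to 62.7, 63.4 and 74.0, enteroendocrine markers to 52.9, 58.0 and 68.7, neurons and glia to 34.4, 44.5 and 43.3 and hemocytes to 14.9, 22.2 and 26.8 CPM. Tdc1, tyrosine decarboxylase, the highest of the trachea list at 33.8, 28.9 and 33.8 CPM, also acts in principal cells, where it makes tyramine. The part of other tissues in these values was not tested.

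**Figure D5:**
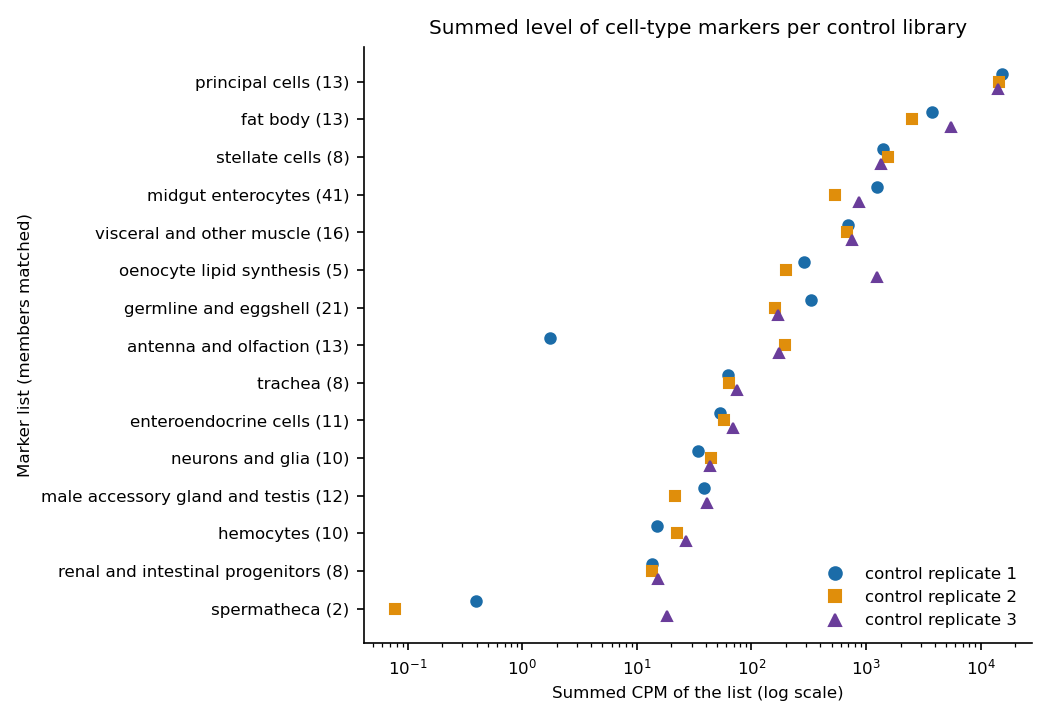
Summed CPM (log scale) of marker lists in each control library, with the number of matched members in brackets; the antenna, oenocyte and spermatheca lists were chosen after values were seen. Principal cell, stellate cell, muscle and progenitor lists lie close together in the 3 libraries, and replicate 1 lacks the antennal genes. Replicate 3 has the highest sum for the oenocyte, spermatheca and fat body lists, the fat body sum being mostly yolk protein genes.

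The libraries held next to no RNA from the Y chromosome. Of 23 Y-linked protein-coding genes 0 had a count, and 2 other Y-linked genes had 22 counts in all 3 libraries together. roX2, a non-coding RNA of male dosage compensation, had no count, and roX1, its partner, was at 9.71, 11.2 and 10.3 CPM. Sxl, the sex-determination gene on the X chromosome, was at 125, 136 and 149 CPM. Male accessory gland and testis markers summed to 38.7, 21.6 and 40.9 CPM, of which bol, the highest, was at 35.8, 19.4 and 37.5 CPM. Genes at 1 CPM or more on the X chromosome had a median of 9.82 CPM per kb over 1303 protein-coding genes, and those on the large autosomes 10.6 over 6424.

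Stress, immune and clock genes were measured at the same time. Hsc70-4, the constitutive chaperone gene, was at 2889, 2802 and 4048 CPM, and Hsp83, the Hsp90 gene, at 162, 548 and 974 CPM, a 6.02-fold range with its lowest value in replicate 1. Antimicrobial peptide genes summed to 74.2, 89.9 and 129 CPM, with 12 of 36 genes at 1 CPM or more. Drs, drosomycin, was the highest at 23.5, 24.4 and 58.5 CPM. Rel, the NF-kappaB factor of the Imd pathway, was at 229.6, 323 and 245 CPM, PGRP-SA at 33.2, 68.9 and 35.6 CPM and Sting at 26.4, 34.1 and 32.7 CPM. Of the clock genes, cry, the blue light receptor, was at 121, 119 and 105 CPM per kb and tim, timeless, at 58.0, 82.2 and 94.1. Replicate 1 had the highest cry and the lowest tim, and vri was lowest there too, at 101, 187 and 177 CPM.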

How the data were processed

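Poly-A RNA of Malpighian tubules was sequenced from control and tumour-bearing flies, and only the 3 control libraries were used. The authors deposited raw read counts per gene in 1 table of 17611 genes. TopHat, HTSeq and Cufflinks are the tools that appear in the submitters' processing notes. Not given in the sources used here are the genome build, the annotation, the strand setting and all versions, and a gene and an overlapping or antisense partner cannot therefore be told apart. Exon overlap is mentioned for some genes only, and a gene without such a remark may also overlap another. All 6 value columns were mapped to samples by title, leaving 0 unmapped.

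CPM were computed from library totals over all genes of the table. CPM per kb used the union of annotated exons of the Ensembl BDGP6 annotation matched by FlyBase ID, and 59 genes had no match. That annotation need not be the one used for counting. Genes with a count in a control library were ranked by mean CPM per kb, and list members with no count were placed after the last rank. The order of a pair of genes is called free of overlap where every library of one lies above every library of the other. Floors of 3 counts cover counting error only.

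The members and gene lists were chosen with earlier results of these data known. A naming rule took the 20 highest genes on each scale and the 5 highest members of each list. It also took the 3 highest of each marker list and listed isoforms. The 10 genes with the widest ratio between libraries at 10 CPM or more were added. So were ct, tsh, esg, yki, Uro, CapaR, Lkr, Mur18B, roX1 and roX2. The rule gave 313 genes, and the text names only part of them. Which of them to name was chosen without a further rule. Another 22 genes were named after their values were seen, among them all members of the oenocyte list, Orco, Send1, COX4L and NKCC. Lists for antenna, oenocytes, spermatheca and respiratory complexes were likewise added after values were seen. No test between groups was run. Spread was estimated with edgeR 4.0.16 in R 4.3.3, and the other values with Python 3.11.15, pandas 2.3.3, numpy 2.4.6 and matplotlib 3.10.9. The scripts for levels and spread were tested on simulated data. Alternatives were TMM scaling, other gene lengths, totals without mitochondrial genes, ranks among genes at 1 CPM or more, lists without overlapping genes, and each library left out.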

Additional observations from a re-analysis of the deposited data

How the results depend on the processing

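The number of genes at 1 CPM or more in every library, 7956, became 7954 with TMM scaling and 7995 with totals without mitochondrial genes, and 8031 to 8123 with a library left out. The 20 most abundant genes held 21.0% of counts, 17.7% without mitochondrial genes, and 20.7 to 21.2% with a library left out. The median rank of the V-ATPase list, 1845, became 2127.5 with no length, 2304 with coding length and 723.5 without members whose exons overlap another gene, and 1782.5 to 1918.5 with a library left out. That of the TCA cycle list, 462, became 562.5 with coding length, and 442 to 472.5 with a library left out. That of the nuclear oxidative phosphorylation list, 504, became 529 with mean transcript length, 1145 with no length and 514 with coding length, and 490 to 499 with a library left out. That of the ribosomal protein list, 92, became 78 with mean transcript length, 153 with no length, 74 with coding length and 83 without overlapping members, and 87 to 96 with a library left out. With no length, long genes rise by construction, and the overlap setting leaves fewer genes; other causes were not tested. With mean transcript length, 80 of 225 named genes moved in CPM per kb by more than the spread between libraries, and with TMM scaling none of the 225 did. Leaving out replicate 3 lowered the mean CPM of 13 of the 225 genes by more than 1.5-fold, and leaving out replicate 1 or replicate 2 did so for 1 gene each. Leaving out 1 of 3 libraries can raise a mean by 1.5-fold at most. These counts therefore cannot show genes that 1 library lacks, such as the antennal genes in replicate 1. Without replicate 3, CG16826 averaged 48.0 CPM, against 772 CPM over all 3 libraries, and lcs 14.5 CPM, against 237 CPM. No paired analysis was possible because no comparison between groups was made. Depth limits levels under the floor of 3 counts, and a description of promoter motifs was not run.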

Other observations

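Lysosomal genes formed a broad, moderately high list, with 47 of 54 genes at 1 CPM or more in every library and a median rank of 4032. Lamp1, a lysosomal membrane protein gene, was at 861, 832 and 835 CPM per kb in replicates 1, 2 and 3, and CtsB, the cathepsin B gene, at 694, 764 and 628 CPM per kb. Sap-r, the saposin precursor gene, was at 437, 516 and 411 CPM per kb and CtsL1, a cathepsin L gene, at 237, 293 and 213 CPM per kb. Of the chaperones, 12 of 25 genes reached 1 CPM in every library, against 7956 of all 17611 genes. Hsc70-3, the chaperone gene of the endoplasmic reticulum, was at 123.4, 269.6 and 193 CPM per kb, and Hsp60A, the mitochondrial one, at 189, 192 and 204 CPM per kb.

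Of 29 genes for peptides and secreted ligands 18 reached 1 CPM in every library, against 7956 of all 17611 genes. In the top 500 of the 12983 ranked genes stood 2 of the 29. The median rank of the list was 7122, against 6492 for all ranks. Nplp2, a neuropeptide-like precursor gene, was at 161, 165 and 289 CPM per kb and Idgf3, an imaginal disc growth factor gene, at 147, 272 and 136 CPM per kb. egr, the gene of the fly TNF ligand, was at 98.7, 91.7 and 87.0 CPM per kb. Pvf1, which encodes a ligand of the receptor Pvr, was at 47.5, 56.2 and 45.3 CPM per kb. Among nuclear receptor and ecdysone response genes 13 of 17 reached 1 CPM. Eip63F-1 led at 36.3, 30.7 and 39.0 CPM per kb, and usp, the partner of the ecdysone receptor, was at 14.5, 13.1 and 14.1 CPM per kb.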
